A study of Medicago sativa with 24 samples.

Results

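Leaf transcript levels were compared between the 4 genotypes of *Medicago sativa* that gave the most dry matter and the 4 that gave the least. The high dry matter genotypes were S24-2x, S29-4x, S48-4x and S60-4x, and the low dry matter genotypes were the parents PG-F9 and 12P with their hybrids S8-2x and S16-2x. All 24 arrays of the series entered, 12 per class and 3 per genotype, with 41527 genes each. The classes follow dry matter per plant at the second cut in the phenotype data of the study. The same 4 genotypes led narrowly at the third cut, whereas S16-2x led at the first.

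PG-F9 is a 2x plant of subsp. *falcata* that forms 2n eggs, that is, eggs with the somatic chromosome number. 12P is a 2x plant of *coerulea* and *falcata* ancestry that forms 2n pollen. All 6 hybrids are full sibs of the cross PG-F9 × 12P, and the 4x hybrids arose where a 2n egg met a 2n pollen grain (bilateral sexual polyploidization). No treatment was applied, and each genotype is 1 plant propagated by cuttings. RNA came from young, fully expanded leaves of vegetative plants in a screen house, each replicate being a bulk of leaves from 2 cloned plants. Dry matter was measured on other cuttings of the same plants, clipped at flowering. The high class holds every 4x hybrid and S24-2x, and the low class holds both parents, so class cannot be told apart from ploidy or parentage over all 8 genotypes. S24-2x against S8-2x and S16-2x, all 2x full sibs, and the 4x hybrids against the parents are 2 comparisons of high with low genotypes that share no array.

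Dry matter is the dried mass of the shoot. It is built from carbon fixed in the leaves, much of which ends in cell walls, and is drawn on by respiration and by the synthesis of defensive compounds. Starch stored in chloroplasts by day and broken down by night links leaf photosynthesis to growth. Alfalfa, the forage crop of this species, is grown mainly as a 4x plant.

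Values are intensities on the log2 scale, each summarized over up to 3 probes per gene, and a difference is always high minus low. The median intensity of an array lay between 499.3 and 527.7, and arrays of the same genotype correlated at 0.985 to 0.995 on average. S48-4x replicate 2 had the lowest such correlation (0.985) and the highest mean over the genes called higher. The 11 negative control rows averaged 5.55 ± 0.15 in the high and 5.65 ± 0.11 in the low genotypes (SD, n = 4 genotypes each; two-sided exact permutation test, p = 0.314, the smallest possible being 0.0286). Signal exceeded the top negative control row of the array for 75.7% ± 1.88 of genes in the high and 72.2% ± 3.13 in the low genotypes (p = 0.114, same exact test). In the order of deposit the high arrays held positions 13 to 24 and the low arrays positions 1 to 12. Slide and scan are not given in the sources used here, so a processing order, if one existed, and class cannot be told apart. Probes were designed on *M. truncatula*, and the part of sequence differences between genotypes under the probes was not tested.

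In the limma fit over the 24 arrays, 512 genes (1.23% of those tested) differed at an adjusted p below 0.05 with a log2 difference beyond 1 in either direction, which is what "called" means below. Of these, 312 (0.751% of all genes) were higher and 200 (0.482%) lower in the high genotypes. Among called genes with a named product and separate genotype means, extensin, a proline-rich protein, a lipocalin and non-LTR reverse transcriptases had some of the largest increases. An alcohol dehydrogenase superfamily gene, an alternative oxidase, MYB139 and chalcone synthase 8 had some of the largest decreases. Without S48-4x replicate 2 the count was 413, and without the parent 12P it was 852. Without S24-2x, which leaves only 4x hybrids in the high class, it was 655. Of the 512, 427 were called in the same direction in that fit of 4x against 2x genotypes. With genotype as a random block (estimated correlation 0.378 between arrays of a genotype), 388 genes (0.934%) were called, 261 higher and 127 lower, and with 1 mean per genotype 194 (0.467%) were called, 171 higher and 23 lower. Splitting the same arrays by ploidy instead, the 4x hybrids against every 2x genotype, called 455 genes (1.1%). All genes called with the block and all called over genotype means were among the 512, and the share of higher genes was 60.9% over arrays, 67.3% with the block and 88.1% over genotype means.

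Genotype means of the classes did not overlap for 332 of the 512 genes, against 12.5% of all genes tested. Of the 332, 242 were higher and 90 lower, while over all genes tested 6.3% had separate means in the higher and 6.17% in the lower direction. For 97 of the 512, 86 higher and 11 lower, no array of one class reached the range of the other, against 0.703% of all genes (0.486% higher and 0.217% lower). Identifiers with the prefix NP made up 58.0% of the genes called higher (181) and 13.5% of those called lower (27), against 26.7% of all genes on the array. The annotation used here, taken from the gene tables of the study, covered 355 of the 512 genes, gave 147 a named product and called 121 hypothetical. Genes outside it are not named here.

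**Figure D1:**
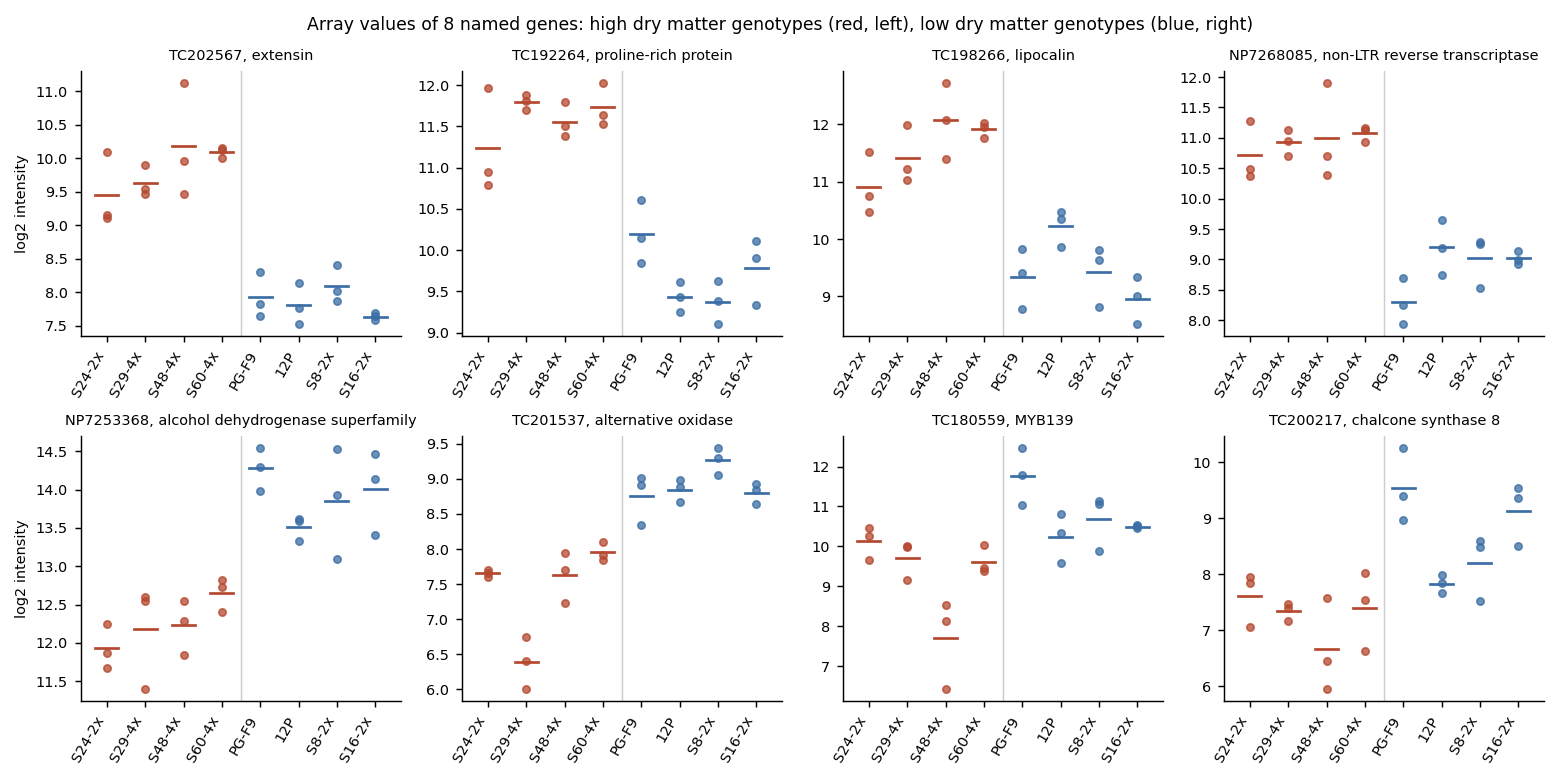
Log2 intensity (y axis) of 8 named genes in each array, grouped by genotype (x axis), with a bar at the mean of 3 arrays; high dry matter genotypes are red on the left, low dry matter genotypes blue on the right. For extensin TC202567 the lowest high array (9.11) lies above the highest low array (8.41), whereas for MYB139 gene TC180559 S48-4x lies far below the other high genotypes.

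Among structural proteins of the cell wall, extensin gene TC202567 gave 9.11, 9.92 and 11.13 in the high arrays (lowest, median and highest) and 7.53, 7.79 and 8.41 in the low arrays. No high array came down to the low range. The difference was 1.97 ± 0.17 (SE; 3.93-fold; adjusted p = 8.18e-08). Extensins are hydroxyproline-rich glycoproteins that crosslink in the wall. Proline-rich protein gene TC192264 lay between 10.79 and 12.03 in the high arrays, with a median of 11.67, and between 9.10 and 10.60 in the low arrays, with a median of 9.62. These ranges did not overlap either, and the difference was 1.88 ± 0.16 (adjusted p = 7.45e-08). NP7266259, whose BURP domain is shared by several plant wall and seed proteins, was higher by 1.87 ± 0.34 (adjusted p = 0.000419) with overlapping arrays, 8.29 to 10.89 in the high and 6.43 to 9.63 in the low class.

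Lipocalin gene TC198266 showed 10.47, 11.63 and 12.73 in the high arrays and 8.52, 9.52 and 10.48 in the low arrays. Only the lowest S24-2x array fell below the highest 12P array, and the difference was 2.09 ± 0.24 (4.25-fold; adjusted p = 3.42e-06). Plant lipocalins are small proteins that bind lipids and are linked to tolerance of oxidative and temperature stress. TC200115, annotated as chain 3 of NADH-ubiquinone oxidoreductase, the entry complex of the respiratory chain, was measured at 8.86 to 10.32 in the high arrays (median 9.38) and at 6.45 to 8.05 in the low arrays (median 7.70). Its difference was 1.80 ± 0.17 (3.48-fold; adjusted p = 1.9e-07), with no overlap. TC186319, with a Phox/Bem1p domain of the kind that mediates contacts between proteins, was higher by 1.69 ± 0.21 (adjusted p = 9.38e-06), 7.74 to 9.31 against 6.19 to 8.02.

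The 2 genes with the largest increase of any annotation were hypothetical proteins. NP7266087 gave 11.01, 11.57 and 12.51 in the high arrays and 8.61, 9.29 and 9.66 in the low arrays, a difference of 2.37 ± 0.15 (5.18-fold; adjusted p = 8.74e-10). NP7263491 differed by 2.30 ± 0.18 (4.93-fold; adjusted p = 1.33e-08). In both genes every high array exceeded every low array. The high genotype means of NP7266087 were 11.37 in S24-2x, 11.42 in S29-4x, 11.87 in S48-4x and 11.66 in S60-4x, and its low genotype means lay between 8.81 and 9.52.

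Among genes called lower, NP7253368 is a zinc-containing member of the alcohol dehydrogenase superfamily, with 11.40, 12.34 and 12.82 in the high arrays and 13.10, 13.96 and 14.54 in the low arrays. These ranges did not overlap, and the difference was -1.66 ± 0.19 (3.17-fold lower; adjusted p = 1.76e-06). TC186495, named only by its *Arabidopsis* counterpart At3g04070, gave 7.11, 8.51 and 9.48 in the high arrays and 9.31, 10.32 and 11.17 in the low arrays. It had the most negative difference, -1.81 ± 0.24 (adjusted p = 1.7e-05), among called genes with separate genotype means. TC199861, absent from the annotation used, was lower by 1.80 on the log2 scale but lost its call with the random block (adjusted p = 0.0902).

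In 4 further named decreases the arrays of the classes overlapped. TC178949, an esterase/lipase, lay at 6.82 to 8.55 in the high and 7.93 to 10.28 in the low arrays (-1.45 ± 0.25, adjusted p = 0.000264). TC197251, a MutT domain protein of the family that hydrolyses nucleoside diphosphate derivatives, lay at 5.94 to 8.91 and 7.29 to 9.98 in high and low arrays (-1.45 ± 0.29, adjusted p = 0.00103). NP7255339, subunit 8 of translation initiation factor eIF3, lay at 7.73 to 9.03 in the high and 8.98 to 10.86 in the low arrays (-1.43 ± 0.20, adjusted p = 3e-05). TC184830 lay at 8.05 to 9.56 in the high and 9.28 to 11.35 in the low arrays (-1.40 ± 0.21, adjusted p = 5.32e-05). Its annotation joins an ATPase alpha/beta subunit family, which includes the ATP synthases, with a reverse transcriptase and a disease resistance protein. Over genotype means these 4 genes, MYB139 gene TC180559, chalcone synthase gene TC200217 and alternative oxidase gene TC201537 were no longer called, with adjusted p between 0.0559 and 0.197. The most negative called difference of all, -3.46 for TC192466, was outside the naming rule because its genotype means overlapped; it was picked out after its value was seen.

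The comparison within 2x full sibs, S24-2x against S8-2x and S16-2x (3 and 6 arrays), called 521 genes (1.25%), 274 higher (0.66%) and 247 lower (0.595%). The 4x hybrids against the parents (9 and 6 arrays) called 566 (1.36%), 318 higher (0.766%) and 248 lower (0.597%). Of these, 102 genes (0.246% of all genes) were called in the same direction in both, 90 higher and 12 lower. They made up 32.8% of the S24-2x list and 28.3% of the 4x list among higher genes, and 4.86% and 4.84% of those lists among lower genes. Averaged over the 90 higher genes, replicates 1, 2 and 3 gave 9.46, 9.66 and 10.17 in S24-2x. In S48-4x they gave 9.89, 10.71 and 9.48. The 90 genes thus moved together between replicates of a genotype and are not independent of each other. Only 1 gene, the hypothetical NP7268966, was called in opposite directions, 1.57 in the 4x hybrids and -1.61 in S24-2x, and it is named after its values were seen. The high side of the S24-2x comparison is 1 genotype, so its p-values hold no spread between high genotypes. Any difference particular to S24-2x counts there as high against low, in the 521 genes and in the 102 shared. The random block and genotype means were fitted to the main comparison only. The S24-2x count also depends on single arrays. Without S24-2x replicate 3 it was 66, with 9 genes shared, without replicate 2 it was 133, with 27 shared, and without replicate 1 it was 1225, with 132 shared. Leaving out S8-2x replicate 2, S8-2x replicate 3 or S16-2x replicate 2 gave 266, 235 and 273 genes, with 54, 47 and 54 shared.

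**Figure D2:**
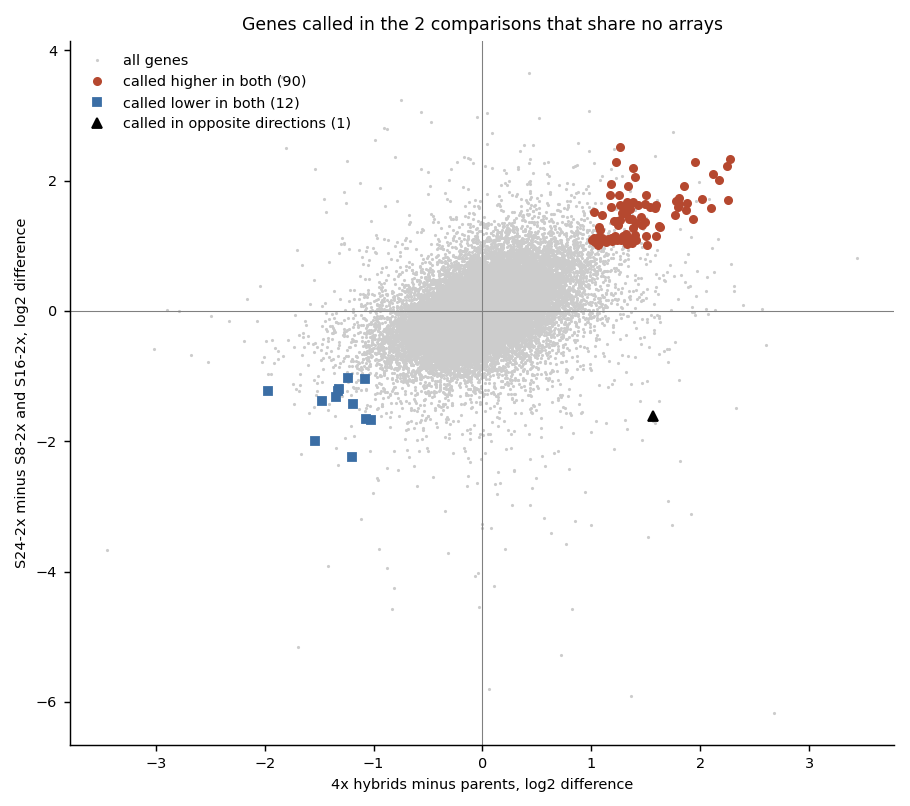
Log2 difference of the 4x hybrids minus the parents (x axis) against that of S24-2x minus S8-2x and S16-2x (y axis), each grey point a gene. Red circles are the 90 genes called higher in both, blue squares the 12 called lower in both, and the black triangle the 1 called in opposite directions; the shared genes lie mostly in the upper right.

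Of the 102 shared genes, 58 were hypothetical and 28 had a named product, and 69 carried an NP identifier, 66 of them higher. Shared genes were ranked by the smaller of their 2 absolute differences, and the 4 leading increases were all in hypothetical proteins. NP7266087 differed by 2.34 ± 0.24 in S24-2x and 2.27 ± 0.18 in the 4x hybrids (adjusted p = 0.00356 and 4.18e-05). NP7263491 differed by 2.23 and 2.25 in those comparisons, NP7272488 by 2.09 and 2.12, and NP7259663 by 2.01 and 2.17. In NP7266087 the 2 values differed by less than either SE. NP7272488 lay at 10.53 to 12.16 in the high and 8.4 to 9.95 in the low arrays, and NP7259663 at 10.47 to 12.30 and 8.60 to 9.30.

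By the same ranking the 4 leading decreases were the alcohol dehydrogenase superfamily gene NP7253368 (-2.0 ± 0.31 in S24-2x and -1.54 ± 0.23 in the 4x hybrids), the alternative oxidase TC201537 (-1.38 ± 0.17 and -1.48 ± 0.30), the serine repeat antigen-related NP7273965 (-1.32 ± 0.21 and -1.35 ± 0.16) and TC186852, without annotation (-1.24 ± 0.18 and -1.32 ± 0.19). TC186852 was dim: 1 of 12 high and 9 of 12 low arrays exceeded the highest negative control, and with values floored at that control its main difference was -0.69 and it was not called. NP7273965 was above the negative controls in every array, 11.61 to 12.75 in the high and 12.88 to 13.69 in the low class. Extensin, proline-rich protein, lipocalin, NADH-ubiquinone oxidoreductase chain 3 and both large reverse transcriptase differences were also called in both comparisons. Extensin gene TC202567 differed by 1.58 in S24-2x and 2.10 in the 4x hybrids, and lipocalin gene TC198266 by 1.72 and 2.01.

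A further 212 genes were placed in 17 lists by their annotation. Since the study annotated genes it had called between parents, 2x and 4x hybrids in these arrays, the lists hold genes already known to vary here and are no independent evidence of a direction. The median difference over all genes was -0.016, against which the list medians are given, and 58 of the 212 were called. Over the whole annotation 355 of 1019 genes were called, and 147 of the 508 with a named product. These shares, not those over all genes, are the nearer background for the list counts below. Across the 75 called genes of the lists and of the naming rule, 23 lost the call when some single array was left out and 38 when some single genotype was. Of the 24 genes singled out by size these were 0 and 1. Those 24 were chosen for large differences in the same arrays, so that they kept their calls follows largely from the choice.

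**Figure D3:**
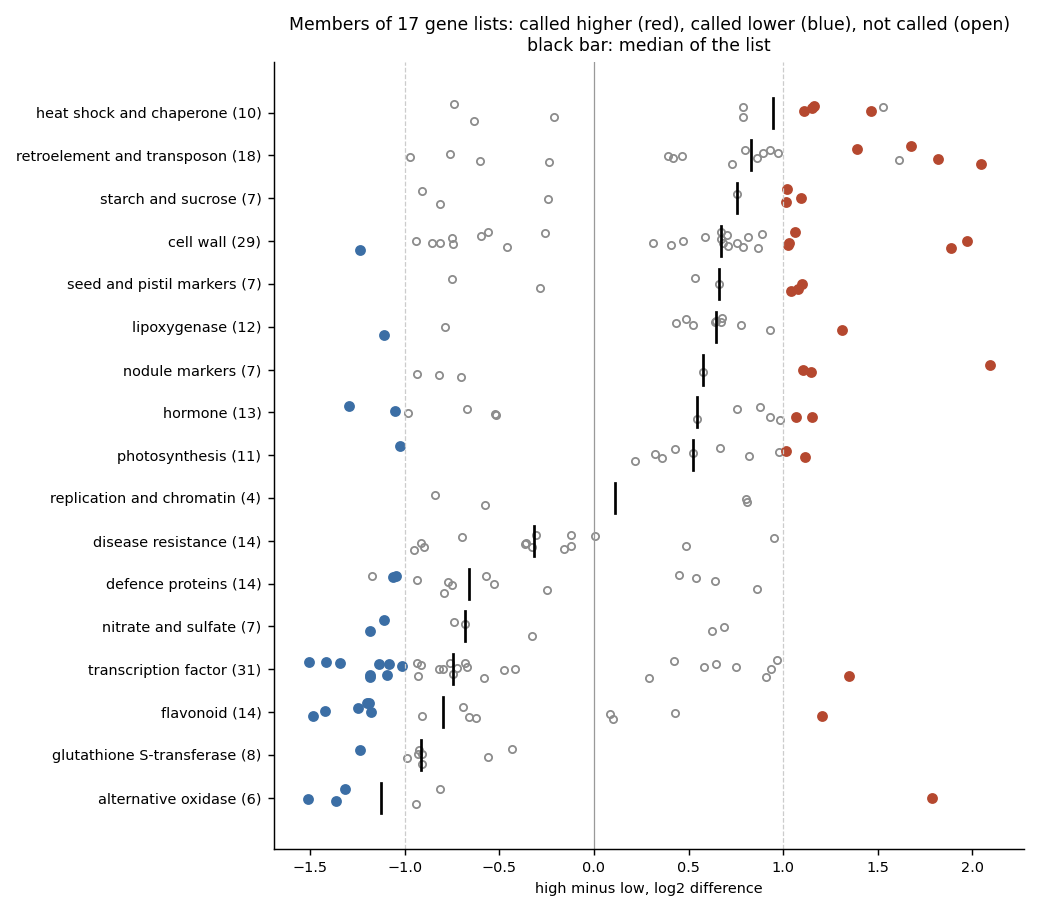
High minus low log2 difference (x axis) of each member of the 17 lists (y axis, number of members in brackets). Red and blue points are members called higher and lower, open points members not called, black bars list medians, and dashed lines mark differences of 1 and -1; the alternative oxidase list has the lowest median (-1.13) and the heat shock list the highest (0.95).

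Of 29 cell wall genes, 5 were called higher and 1 lower, against 0.751% and 0.482% of all genes, and the list median was 0.67. Among all genes with a named product, 147 of 508 were called in either direction. Besides extensin and the proline-rich protein, the genes called higher were 2 xyloglucan endotransglycosylases, which cut and rejoin wall xyloglucan (TC201503, 1.03 ± 0.19; TC176289, 1.02 ± 0.22), and the family 28 glycoside hydrolase NP7271791 (1.06 ± 0.36), a family that includes the pectin-degrading polygalacturonases. The hydroxyproline-rich glycoprotein TC193556 was lower by 1.24 on the log2 scale. With the random block NP7271791 (adjusted p = 0.143) and TC193556 (adjusted p = 0.0674) lost their calls. In S24-2x the list median was 0.05, and both xyloglucan endotransglycosylases differed by about 0.2 (0.22 and 0.19), whereas in the 4x hybrids the median was 1.03 with 14 called higher and 5 lower. NP7271791 was at 5.65 on average in S24-2x, the lowest of the high genotypes, exceeded the negative controls in 9 high and 4 low arrays, and over 2x genotypes alone its difference was -0.51. Without S48-4x replicate 2, 2 cell wall genes were called higher.

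Of 7 starch and sucrose genes, 3 were called higher and 0 lower, with a median of 0.76, while 2 were lower at an unadjusted p below 0.05 in the same limma fit. Alpha-glucan water dikinase 1 (TC189773), which phosphorylates starch at the start of its breakdown, lay at 10.44, 11.13 and 12.05 in the high arrays and 9.39, 10.02 and 11.43 in the low arrays (1.09 ± 0.21, adjusted p = 0.000754). Glucose-1-phosphate adenylyltransferase (TC202057), the committed step of starch synthesis, lay at 11.25, 12.05 and 12.51 against 10.53, 11.04 and 11.88 (1.01 ± 0.15, adjusted p = 6.27e-05). Phosphoglucomutase (TC193937), which interconverts glucose phosphates, differed by 1.02 ± 0.24. In S24-2x the list median was -0.11, against 0.96 in the 4x hybrids. Their class ranges overlapped, and without S48-4x replicate 2 only 1 of the 3 was called.

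The photosynthesis list also served as the check on leaf tissue. Its mean level was 10.03 to 12.07 in the high and 9.82 to 11.97 in the low arrays. Of 11 members, 2 were called higher and 1 lower, with a median of 0.53, and 10 of the 11 differences were positive. THYLAKOID FORMATION1 (TC182622), needed for thylakoid assembly, was 1.01 ± 0.11 higher, with every genotype mean of the high class above every low one. A chlorophyll a/b binding protein gene (TC183902) was 1.11 ± 0.32 higher, above the negative controls in 11 high and 4 low arrays, and the light-harvesting gene Lhcp2.2 (TC199557) was lower by 1.03 on the log2 scale. With the random block these 2 calls were lost (adjusted p = 0.126 for TC183902 and 0.0878 for TC199557). In S24-2x the list median was -0.44, against 0.66 in the 4x hybrids. Without S48-4x replicate 2 none of the 11 was called higher in limma, while 4 were higher at an unadjusted p below 0.05 with all arrays.

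Of 14 flavonoid genes, 6 were called lower and 1 higher, with a median of -0.80. Flavonoid synthesis starts from chalcone synthase, and chalcone reductase acting beside it opens the branch to the isoflavonoid phytoalexins of legumes. Chalcone synthase 8 (TC200217) gave 5.95, 7.43 and 8.02 in the high arrays and 7.53, 8.54 and 10.25 in the low arrays (-1.42 ± 0.29, adjusted p = 0.00118). 12P, averaging 7.83, was the lowest of the low genotypes. Chalcone synthase 2 (TC187172) differed by -1.20, the chalcone reductases TC177153 and TC177848 by -1.48 and -1.19, the isoflavone methyltransferase IOMT 8 (TC180134) by -1.24 and anthocyanidin synthase (TC183118) by -1.18. The exception was the (iso)flavonoid glycosyltransferase TC191934 at 1.21 ± 0.23. With the random block 5 were called lower, TC177153 losing its call (adjusted p = 0.0575). The list median was -0.60 in S24-2x, with 1 called lower and 0 higher. It was -0.91 in the 4x hybrids, with 5 called lower and 1 higher. Of the 14, 0 were called in the same direction in both comparisons. For TC177153 the genotype means spread within each class, from 9.12 in S48-4x to 11.91 in S24-2x among the high genotypes, while among the low genotypes 12P was lowest and S16-2x highest, at 12.89.

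Alternative oxidase passes electrons from ubiquinol straight to oxygen, bypassing the proton-pumping complexes downstream. Of its 6 genes, 3 were called lower and 1 higher, with a median of -1.13. TC201537 lay at 6.0, 7.68 and 8.11 in the high arrays and 8.34, 8.92 and 9.44 in the low arrays (-1.51 ± 0.20, adjusted p = 1.69e-05). S29-4x was lowest, at 6.39 on average, and no high array reached the low range. TC201311 differed by -1.36 ± 0.19 and TC179108, alternative oxidase 1a, by -1.31 ± 0.38, the last losing its call with the random block (adjusted p = 0.0854). TC201342 went the other way, with 7.83, 8.92 and 9.55 in the high arrays and 5.39, 6.92 and 8.79 in the low arrays (1.79 ± 0.34, adjusted p = 0.000605). Among the low genotypes 12P stood at 8.61 and PG-F9 at 5.67. TC201537, TC201311 and TC201342 were called in both comparisons without shared arrays, the first pair lower and TC201342 higher. Genes of one family can share probe targets, and cross-hybridization was not tested.

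**Figure D4:**
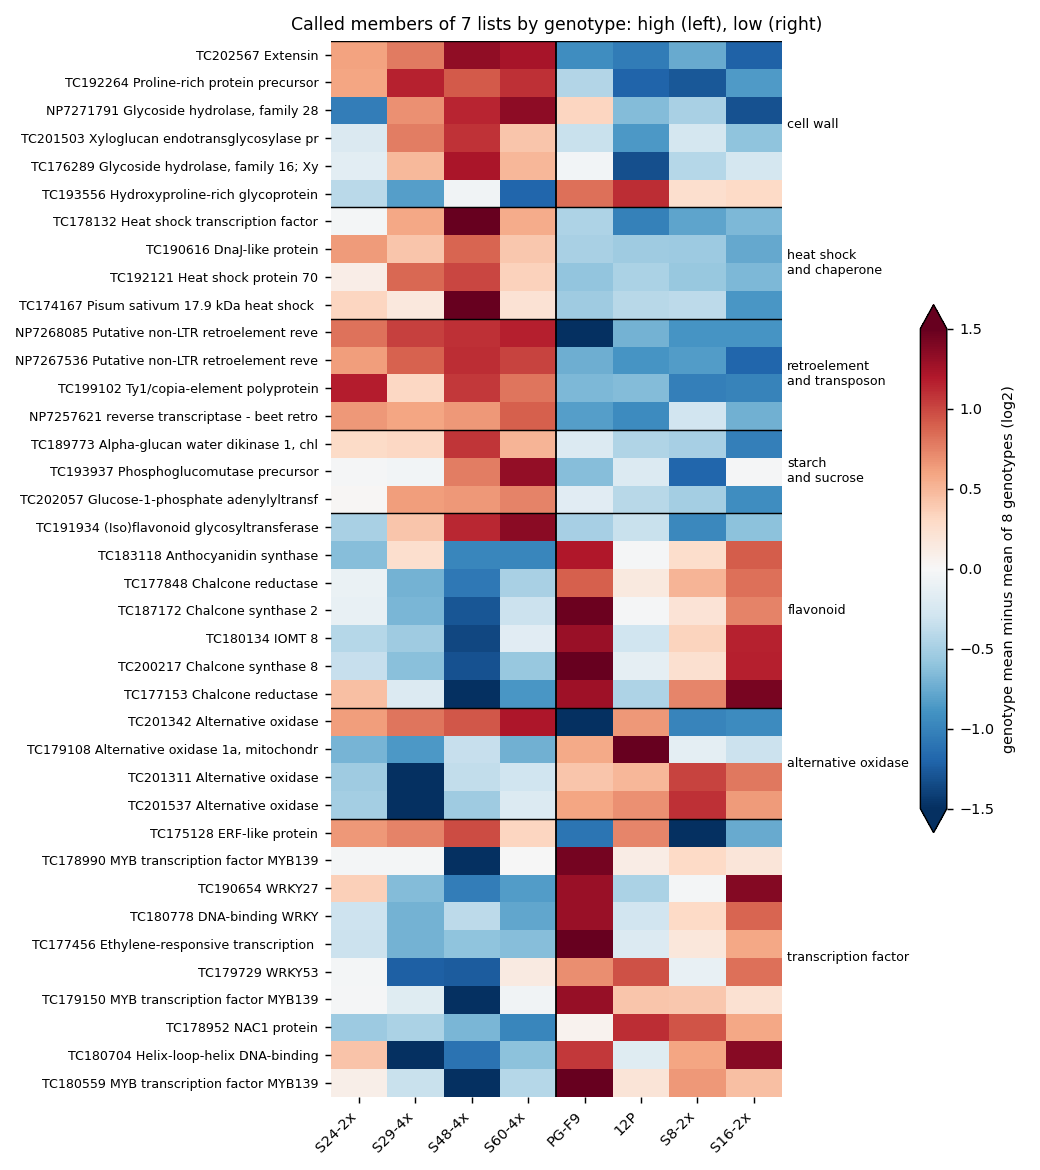
Genotype means of the called members of 7 lists (rows), each minus the mean of the 8 genotypes on the log2 scale, with high dry matter genotypes left of the black line and low ones right; red is above and blue below the row mean, and colours end at 1.5 in either direction. Retroelement genes are red in all 4 high genotypes, whereas the 3 MYB139 genes are at their lowest in S48-4x and near the row mean in S24-2x.

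Of 31 transcription factor genes, 9 were called lower and 1 higher, with a median of -0.74, and with the random block 4 were called lower. In S24-2x the list median was -0.31, with 0 called lower and 1 higher. In the 4x hybrids it was -0.99, with 11 called lower and 3 higher. The genes called lower over all arrays were 3 annotated as MYB139 (TC180559, TC179150 and TC178990), 3 of the WRKY family, NAC1, a helix-loop-helix gene and ethylene-responsive factor 1B. NAC1 (TC178952) lay at 8.58, 9.51 and 10.31 in the high arrays and 9.60, 10.97 and 11.61 in the low arrays (-1.34 ± 0.23, adjusted p = 0.000238). WRKY factors act widely in defence signalling. WRKY53 (TC179729) differed by -1.18 ± 0.25, WRKY27 (TC190654) by -1.08 ± 0.34 and TC180778 by -1.09 ± 0.22. With the random block WRKY27 (adjusted p = 0.152), the 3 MYB139 genes (0.0576, 0.0655 and 0.114) and ethylene-responsive factor 1B (0.0532) lost their calls. The helix-loop-helix gene TC180704 was lower by 1.41 on the log2 scale. The ERF-like TC175128 was the one called higher (1.35 ± 0.30), but 4 of 12 low arrays exceeded the negative controls and the floored difference of 0.61 was not called. MYB139 gene TC180559 averaged 7.70 in S48-4x and 9.62 to 10.13 in the other high genotypes, its difference over 2x genotypes alone was -0.66 (adjusted p = 0.433), and without S48-4x it was -0.97 and not called. Ethylene-responsive factor 1B (TC177456) exceeded the negative controls in 0 of 12 high and 4 of 12 low arrays, so its decrease is bounded only as at least 1.02-fold. This bound sets the low class mean, undetected low arrays included, against the highest negative control on each high array.

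The lists of detoxification, defence and mineral uptake genes had negative medians. Glutathione S-transferases conjugate glutathione to reactive compounds. All 8 of their differences were negative, with a median of -0.92, but only GST 7 (TC200469, -1.24 ± 0.29) was called. GST 7 differed by -0.06 in S24-2x and by -1.72 in the 4x hybrids. Of 14 defence proteins, 2 protease inhibitors were called lower (TC194431, -1.05; TC195437, -1.06) and 0 higher, with 2 higher at an unadjusted p below 0.05. Of 14 disease resistance genes 0 were called in limma in either direction, with 1 higher and 3 lower at an unadjusted p below 0.05, and the largest difference was -0.95 for TC185251. TC184830, whose joint annotation also names a disease resistance protein, was outside this list and was called lower (-1.40). Of 7 nitrate and sulfate genes, the high affinity sulfate transporter 1 (TC195749, -1.18 ± 0.27) and cysteine synthase (TC191986, -1.11 ± 0.21), which makes cysteine from reduced sulfur, were called lower. Cysteine synthase exceeded the negative controls in 3 of 12 high and 9 of 12 low arrays, and with values floored at that control its difference was -0.76 and it was not called.

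Of 10 heat shock and chaperone genes, 4 were called higher and 0 lower, with a median of 0.95, all 4 also with the random block, and 2 were lower at an unadjusted p below 0.05. In S24-2x the list median was 0.27, with 1 called higher and 0 lower. In the 4x hybrids it was 1.01, with 5 called higher and 1 lower. A heat shock transcription factor (TC178132) lay at 8.68, 9.48 and 11.07 in the high arrays and 7.81, 8.09 and 8.88 in the low arrays (1.46 ± 0.23, adjusted p = 8.25e-05). It differed by 0.70 in S24-2x, where it was not called, and by 1.72 in the 4x hybrids. The co-chaperone gene DnaJ-like TC190616 differed by 1.16 ± 0.18 and a small heat shock protein gene, TC174167, by 1.11 ± 0.21, but 4 and 3 of their 12 low arrays exceeded the negative controls, and floored there the differences of 0.90 and 0.70 were not called. Heat shock protein 70 gene TC192121 was called (1.15), but its low arrays never exceeded the negative controls and 6 of 12 high arrays did, and with values floored at that control its difference was -0.04. Of 12 lipoxygenases, enzymes that oxygenate polyunsaturated fatty acids, lipoxygenase-9 (TC179329) was 1.31 ± 0.36 higher and TC177028 was lower by 1.11 on the log2 scale, and neither was called with the random block.

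Of 18 retroelement and transposon genes, 4 were called higher and 0 lower, with a median of 0.83 and 2 lower at an unadjusted p below 0.05. TC184830, whose joint annotation includes a reverse transcriptase, was outside this list and was called lower (-1.40). Reverse transcriptases copy the RNA of such elements into DNA. The non-LTR reverse transcriptase NP7268085 lay at 10.38, 10.94 and 11.91 in the high arrays and 7.94, 8.96 and 9.65 in the low arrays (2.04 ± 0.18, 4.13-fold, adjusted p = 8.18e-08). NP7267536, of the same annotation, lay at 9.48, 10.15 and 11.16 against 7.77, 8.28 and 9.02 (1.82 ± 0.16, 3.52-fold). The classes were apart in both genes. The Ty1/copia polyprotein TC199102 and the reverse transcriptase NP7257621 never exceeded the negative controls in the low arrays. They did so in 11 and 12 of the 12 high arrays, which bounds the increases at at least 1.47-fold and 1.44-fold. All 4 were called in both comparisons without shared arrays.

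Hormone genes were mixed, with 2 of 13 called higher and 2 lower. Abscisic acid 8'-hydroxylase (TC195807), which inactivates abscisic acid, differed by 1.07 ± 0.18 and a gibberellin-regulated protein (NP7275579) by 1.15 ± 0.19. ACC oxidase (TC183723), the last step of ethylene synthesis, differed by -1.29 ± 0.24 and the peptide growth factor phytosulfokine (TC190082) by -1.05 ± 0.27, the last losing its call with the random block (adjusted p = 0.072). Abscisic acid 8'-hydroxylase differed by 0.27 in S24-2x and 1.61 in the 4x hybrids. Of 4 replication and chromatin genes 0 were called in limma, with 1 higher at an unadjusted p below 0.05, and the largest difference was -0.84 for the licensing factor mcm2 (TC173466).

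Markers of other organs were also on the arrays. Of 7 nodule markers, 3 were called higher and 0 lower, with 3 lower at an unadjusted p below 0.05 in the same limma fit. In the 4x hybrids against the parents, 3 were called higher and 2 lower. The mean level of the 7 was 8.50 to 9.14 in the high and 7.79 to 9.22 in the low arrays. None of the 7 stayed below the negative controls on every array. Early nodulin 12B (TC191278) was called at 2.09 ± 0.75, but 3 low genotypes averaged 11.02 to 11.45 and 12P alone 5.21, and without 12P the difference was 0.59 and not called. With the random block and all genotypes it was not called either (adjusted p = 0.1). Nodule-specific glycine-rich protein 2B (TC192759) and a nodulin precursor (TC179367) were 1.15 and 1.11 higher. Of 7 seed and pistil markers, 3 lipid transfer or seed storage family genes were called higher (1.04 to 1.10) but none with the random block, where adjusted p was 0.0731 to 0.126. Their mean level was 8.08 to 10.56 in the high and 8.01 to 9.93 in the low arrays, and the part of these markers in the class differences was not tested.

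Each genotype was then left out in turn, the genes were called anew on the other 7, and the left-out genotype was placed against the midpoint of the 2 class means. Among the high genotypes, S60-4x lay on the side of its own class for 83.3% of 521 genes, S48-4x for 81.5% of 454, S29-4x for 77.4% of 583 and S24-2x for 59.1% of 655. Among the low genotypes, S16-2x did so for 73.9% of 486 genes, S8-2x for 73.2% of 568, PG-F9 for 57.3% of 618 and 12P for 42.8% of 852. S24-2x, the only 2x genotype of the high class, was on the high side for 66.7% of genes called higher and on the low-expression side for 48.9% of genes called lower. In every genotype the share was larger for genes called higher than for genes called lower. With no threshold on the difference this did not hold in S29-4x (70.2% higher, 70.7% lower) or S60-4x (82.1% and 82.4%). It still held in the other genotypes. These shares are descriptions over genes, which are not independent, and carry no test.

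**Figure D5:**
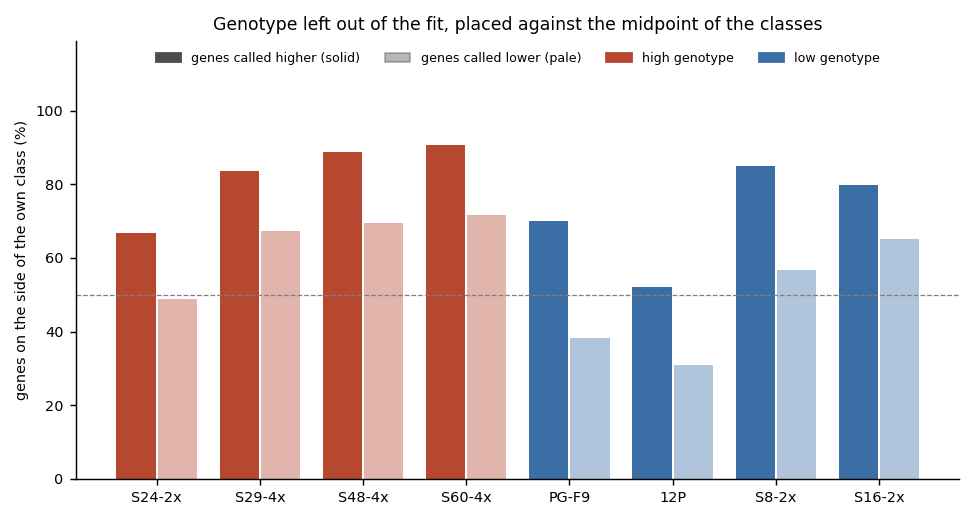
Percentage of genes (y axis) for which a left-out genotype (x axis) lay on the side of its own class, with high genotypes in red and low genotypes in blue, solid bars for genes called higher and pale bars for genes called lower; the dashed line marks 50%. S60-4x reaches 90.6% for genes called higher, whereas 12P reaches 30.9% for genes called lower.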

How the data were processed

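Per the methods of the study, labelled cDNA was hybridized to 1-colour NimbleGen arrays with probes for *M. truncatula* genes and scanned on an Axon GenePix 4400A. The authors applied quantile normalization between arrays and RMA over the probes of each gene in NimbleScan 2.5. The deposited values are the resulting intensities, on the linear scale. The 11 negative control rows were set aside and log2 taken of the other 41527. The test was the methods' 2-class unpaired limma design (R 4.3.3, limma 3.58.1) with Benjamini-Hochberg adjustment over all genes, called at adjusted p below 0.05 and a log2 difference beyond 1. Replicates of a genotype are bulks of clones, so p-values over arrays leave out much of the spread between genotypes. The random block and genotype means address this in the main comparison only. Depth does not apply to arrays, whose number limits precision. The fits were tested on simulated data.

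Genes were named by a rule: among called genes with separate genotype means, the 8 largest differences per direction with a named product and the 2 largest of any annotation, the 4 largest per direction called in both comparisons without shared arrays, and called members of the lists (where none, the largest). The classes, members and lists were chosen with earlier results of these data known. Names and lists come from gene tables of the study, whose own fold changes and p-values were not used. Alternatives covered normalization, filters, floor, moderation, blocks and left-out arrays or genotypes. Replicate numbers did not pair the samples, since residuals of same-numbered arrays of different genotypes correlated at -0.0066 on average (84 pairs) and those of other arrays at 0.0030 (168 pairs). No 2 arrays held identical values. Probe and transcript sequences were not used here.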

Additional observations from a re-analysis of the deposited data

Results flagged for a closer look

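The 24 genes singled out by size were examined in 48 groups of 4 genotype means for a value far from the others, of which chance picks about 1 in 20. Only 1 of the 48 was flagged, which is no excess over that rate. In TC200115, NADH-ubiquinone oxidoreductase chain 3, S24-2x averaged 9.20, and the other high genotype means lay close together at 9.47 to 9.49. The S24-2x arrays (8.86 to 9.53) overlapped those of S48-4x (8.91 to 10.32). The S24-2x mean still lay above every low genotype mean, the highest being 7.92 in 12P.

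The translation initiation factor gene NP7255339 had a negative difference in both comparisons without shared arrays, but was called only in the 4x hybrids. In S24-2x its adjusted p in limma was 0.121. It differed by -1.92 in the 4x hybrids against the parents and by -0.80 in S24-2x against S8-2x and S16-2x, and the test of the difference between these effects gave -1.11 (adjusted p = 0.0298). Over all genes, 2192 (5.28%) passed that test. Its S24-2x side has 1 high genotype, with arrays of clones as replicates.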

How the results depend on the processing

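Normalization, filters, a floor at the negative controls and moderated variances left the count of 512 between 413 and 513. With 1 mean per genotype it was 194, over hybrids only 784 and with no threshold on the difference 8772. It ranged from 413 to 586 when single arrays were left out and from 454 to 852 for single genotypes. The S24-2x count (521) was 1352 with 8 genotype means fitted over all arrays, 1064 with no threshold and 66 to 1225 without single arrays. The count for the 4x hybrids against the parents (566) was 4716 with no threshold and 457 to 727 without single arrays, and the 102 shared genes became 348 with no threshold and 9 to 132 without single arrays. The replicate numbers did not pair the samples, and with the replicate block 502, 241 and 517 genes were called in the main, S24-2x and 4x comparisons, with 46 shared. With no threshold, the share on the side of the own class was 70.5% for S29-4x and 51.6% for 12P. Negative controls differed by -0.17 to -0.04 without single genotypes. Of 75 named genes that were called, 56 stayed called with the random block, 25 over genotype means and 20 over 2x genotypes only. Differences changed sign for TC192121 with the floor (-0.04), and over 2x genotypes only for NP7271791 (-0.51) and the mcm2 gene TC173466 (0.45). Signals near the negative controls limit dim genes to bounds.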
